A study of Mus musculus with 9 samples.

Results

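Stmn4, Reep2 and Rgs4 are 3 genes that encode proteins of neurons, and their levels were followed over 9 arrays of cells sorted from mouse embryos at E12.5. They are 3 of 302 names, held by 306 of the 347 probes in the published table of altered genes, and the array has 23473 probes in all. Each gene had 1 probe in that table (M200007752 for Stmn4, M200005010 for Reep2 and M200013683 for Rgs4), and each probe was spotted once per array. The study chose its table on 8 of these arrays by an analysis of variance over the 4 groups and a minimum change of 4-fold, so that the levels below are descriptions and carry no test.

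The embryos were P0-Cre/Floxed-EGFP double transgenics. In them, Cre driven by the promoter of myelin protein zero switches on an EGFP reporter in cells of the neural crest lineage. The lines were originally of a C57BL/6J background and had been crossed to ICR mice for several generations. EGFP+ and EGFP- cells were sorted from the craniofacial region (Cp, n = 2, and Cn, n = 2) and from the trunk (Tp, n = 3, and Tn, n = 2), all of the same stage, genotype and reporter. The heart fields were separated from the trunk, and the P0-Cre line is known for slight labelling of the notochord. The EGFP+ gate holds every derivative of the labelled lineage, and the EGFP- gate everything else in the region, the brain or spinal cord included where it was left in the tissue. Neurons were not sorted from other cells in any group, so a lower level on an array of mixed cells can be fewer cells of a type or less RNA per cell, and these cannot be told apart. The study called its samples biological duplicates, and whether they came from separate litters was not stated.

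Neural crest cells of the trunk give rise to the sensory and sympathetic ganglia and their glia, while those of the head form cartilage, bone and connective tissue of the face as well as cranial ganglia. Neurons of the brain and spinal cord arise from the neural tube and not from the crest. Stmn4 encodes a stathmin of neurons, a phosphoprotein that binds tubulin and favours the disassembly of microtubules. Reep2 encodes a receptor expression-enhancing protein, a membrane protein of a family that shapes the endoplasmic reticulum and helps receptors to reach the cell surface. Rgs4 encodes a regulator of G protein signalling, which speeds the hydrolysis of GTP by G protein alpha subunits and so shortens the signal of the receptors upstream.

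Rgs4 was the gene whose level set the trunk EGFP+ cells apart, and the 250 bases before its start, from the RefSeq promoter table (GRCm38.p6, chr1:169747643-169747892, minus strand), are shown for that reason. Capitals mark E-boxes (CANNTG), an octamer (ATTTGCAT, which overlaps an E-box) and a TATA box (TATAAA), motifs picked after the sequence had been read.
Rgs4 promoter: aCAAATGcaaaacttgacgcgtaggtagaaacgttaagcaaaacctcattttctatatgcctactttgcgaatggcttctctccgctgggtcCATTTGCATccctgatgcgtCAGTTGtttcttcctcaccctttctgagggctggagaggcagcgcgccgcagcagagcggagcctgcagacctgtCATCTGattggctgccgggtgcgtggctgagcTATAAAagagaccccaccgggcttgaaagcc
The window held 4 E-boxes, and 66.2% of the 32851 promoters of the table held at least 1 in the same 250 bases on either strand. The TATAAA match began 31 bases before the start and the octamer 157 bases before it, and 12.4% and 1.6% of all promoters held them. A CCAAT box, found in 33.8% of promoters, was present once, and the cAMP response element TGACGTCA, found in 1.55%, was not matched. These are matches of letters, not sites. Stmn4 and Reep2 are named here without sequence.

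Values are the authors' processed intensities, which follow the spot signal above the blank spots with the median of every array near 25. All 3 probes lay above the mean of the blank spots plus 2 SD on all 9 arrays. The dimmest reading was that of Reep2 in Cp, with spots 2.88 and 2.10 times the blank mean. The median spot was 1.81 to 3.21 times the blank mean over the 9 arrays, with the lowest ratio on Tp replicate 3, which is not in the study's table and is given separately throughout. The first replicates of all 4 groups were read in scan 1. The second replicates were read in scan 2 for the craniofacial groups and in scan 3 for the trunk groups, and Tp replicate 3 in scan 4.

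Rgs4 was high in trunk EGFP+ cells and low in the other 3 groups. Its processed intensity was 1119 and 1664 on the Tp arrays, against 77.0 and 86.5 in Tn, 47.1 and 69.3 in Cp, and 37.5 and 46.6 in Cn. No array of another group came near those of Tp. On the log2 scale the levels were 10.41 ± 0.40 in Tp, 6.35 ± 0.12 in Tn, 5.84 ± 0.39 in Cp and 5.39 ± 0.22 in Cn (SD, n = 2 each). Rgs4 in Tp was thus 16.7-fold above Tn (log2 difference 4.06, SE 0.30), 32.6-fold above Cn (5.03, SE 0.30) and 23.9-fold above Cp. The steps among the lower groups were far smaller: Cp lay 0.45 above Cn (SE 0.30), and Cp minus Tn was -0.51 (SE 0.30), both on the log2 scale and neither past the threshold of the fit. Cn and Tn were farther apart, with a log2 difference of -0.96 (SE 0.30), the trunk being higher, and this did not pass either.

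Stmn4 was high both in trunk EGFP+ cells and in craniofacial EGFP- cells, with little between them. Its processed intensity was 1286 and 1324 in Tp and 1227 and 1123 in Cn, then 298.0 and 352 in Tn, and 130 and 93.6 in Cp. Both Tp arrays lay above both Cn arrays, but by a margin smaller than the error of the difference. The log2 levels were 10.35 ± 0.03 in Tp, 10.20 ± 0.09 in Cn, 8.34 ± 0.17 in Tn and 6.78 ± 0.33 in Cp (SD, n = 2 each). Tp minus Cn was 0.15 (SE 0.26), or 1.11-fold, whereas Tp stood 4.03-fold above Tn (log2 difference 2.01, SE 0.26). Within the EGFP- cells, Cn exceeded Tn 3.63-fold (log2 difference 1.86, SE 0.26). Cp was the lowest group, 11.8-fold below Tp, 10.7-fold below Cn and 2.94-fold below Tn.

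Reep2 spanned the narrowest range, 7.43-fold between its highest and lowest group means. Its processed intensity was 159 and 108 in Tp, 96.4 and 84.6 in Cn, 77.2 and 69.6 in Tn, and 19.2 and 16.1 in Cp. In these values the 3 upper groups followed closely on each other, and Cp was well apart. The log2 levels were 7.03 ± 0.40 in Tp, 6.50 ± 0.13 in Cn, 6.20 ± 0.11 in Tn and 4.14 ± 0.18 in Cp (SD, n = 2 each). Tp minus Cn was 0.53 (SE 0.27) and Tp minus Tn 0.83 (SE 0.27), or 1.45-fold and 1.78-fold. Both rested on the 2 Tp arrays unequally: without Tp replicate 1 they were 0.25 and 0.55, and without Tp replicate 2 0.81 and 1.12. Cn minus Tn was 0.30 (SE 0.27), with both Cn arrays above both Tn arrays. Cp lay 5.14-fold below Cn, 4.17-fold below Tn and 7.43-fold below Tp.

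**Figure D1:**
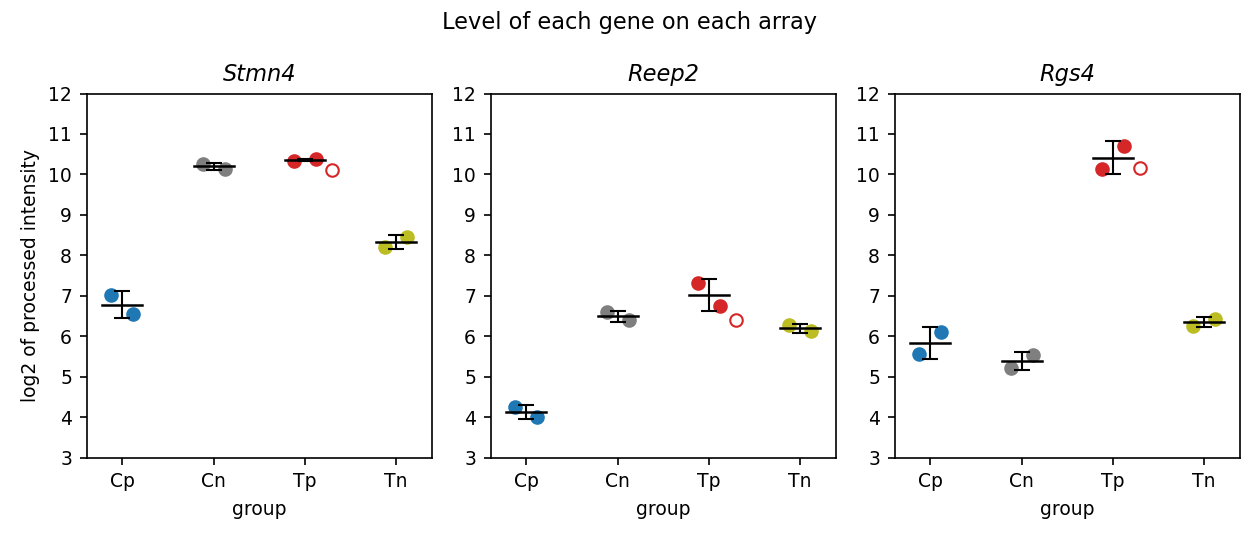
Log2 of the processed intensity of Stmn4, Reep2 and Rgs4 on each array, by group. Filled points are the 8 arrays of the study's table, black bars their group mean and SD (n = 2), and the hollow point is Tp replicate 3. Rgs4 is high in Tp alone, Stmn4 is level between Cn (10.20) and Tp (10.35), and Stmn4 and Reep2 are lowest in Cp.

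The third trunk EGFP+ array, which that table did not use, gives the same measure once more. Rgs4 was 1150 there, above all 4 EGFP- arrays, 27.5-fold over the Cn mean and 14.1-fold over the Tn mean. Stmn4 was 1109, above the 2 Tn arrays and below both Cn arrays, with a log2 difference of -0.08 from the Cn mean and 1.78 from the Tn mean. Reep2 was 85.0, above 3 of the 4 EGFP- arrays, and differed by -0.09 from the Cn mean and 0.21 from the Tn mean on the log2 scale. Over all tested probes, 12.9% had Tp replicate 3 above the 4 EGFP- arrays, and 40.6% of the 347 probes did. On the first 2 Tp arrays all 3 genes lay above the 4 EGFP- arrays, as 11.6% of all tested probes and 41.5% of the 347 probes of the table did. Being 1 array, Tp replicate 3 permits no test.

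The same differences can also be taken within scans. In scan 1, Tp minus Cn was 0.07 for Stmn4, 0.72 for Reep2 and 4.90 for Rgs4 on the log2 scale. Tp minus Tn was 2.11 in scan 1 and 1.91 in scan 3 for Stmn4, 1.04 and 0.63 for Reep2, and 3.86 and 4.26 for Rgs4. Cp minus Cn was -3.24 in scan 1 and -3.58 in scan 2 for Stmn4, -2.33 and -2.39 for Reep2, and 0.33 and 0.57 for Rgs4. The sign of each of these differences was the same in every scan that held both groups. It could not have differed, since no array of one group overlapped those of the other in these pairs. The values thus show sizes within scans only, and Tp and Cn shared only scan 1.

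Against the mean of both EGFP- groups, Tp differed by 1.08 for Stmn4 (SE 0.22), 0.68 for Reep2 (SE 0.24) and 4.55 for Rgs4 (SE 0.26) on the log2 scale. In the limma fit over 23038 probes, Stmn4 and Rgs4 were among the 2.96% of probes that were higher in Tp at an adjusted p under 0.05 (3.23% were lower), and Reep2 was not. Among the 347 published probes, 43.2% were higher and 42.9% lower, and since the table was chosen on these arrays nothing is read from the count. The 3 genes come from that table, so whether each passed is likewise a description and not a test. Against Cn alone, Rgs4 passed and Stmn4 and Reep2 did not, with 2.94% of all probes higher in Tp and 2.82% lower (39.8% and 40.9% of the 347). Against Tn alone, Stmn4 and Rgs4 passed, with 2.09% of all probes higher and 2.84% lower (39.8% and 37.8% of the 347). In Cp minus Tp all 3 were lower in Cp, as were 4.78% of all probes and 58.2% of the 347, while 2.71% and 12.7% were higher. The difference from both EGFP- groups in Stmn4 no longer passed when any of 4 arrays was left out (Cn replicate 2, Tn replicate 1, Tp replicate 1 or Tp replicate 2), with log2 differences of 1.05, 1.02, 1.10 and 1.06.

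The size of these differences also depended on how the scanner values were processed. The scanner files hold the signal of a ring around each spot, and the ring followed the spot (correlation of their logs across probes 0.909 to 0.985 per array). For Stmn4 the spots in Tn read 371 and 568 and their rings 295 and 483, which leaves 76 and 85, while in Cp 84 and 112 were left. With the ring as background, an offset of 50 and quantile normalization, Stmn4 was 7.58 and 7.56 in Tn and 7.29 and 6.98 in Cp on the log2 scale, so that most of the gap between these groups was gone. Tp minus Tn for Stmn4 was then 2.51, larger than before but no longer past the threshold, and Tp minus Cn -0.10. Reep2 was narrowed to 0.33 and 0.05 for the same 2 differences. With the same offset and the blank spots as background they were 0.64 and 0.27, and the share of the offset was not tested. For Reep2 in Cp the spot minus ring was 15 and 30, less than the offset. Cp minus Tn of Reep2 was -2.06 in the authors' values. It was -0.92 with the blank spots and -0.43 with the ring, and passed in neither. Cp minus Tp with the ring was -0.76 and still passed. Rgs4 in Tp kept differences of 2.83 from Tn and 3.50 from Cn with the ring. With the ring, Rgs4 alone of the 3 passed against the mean of both EGFP- groups, where 0.0955% of all probes were higher in Tp. The difference of Stmn4 from that mean was 1.21 and did not pass.

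**Figure D2:**
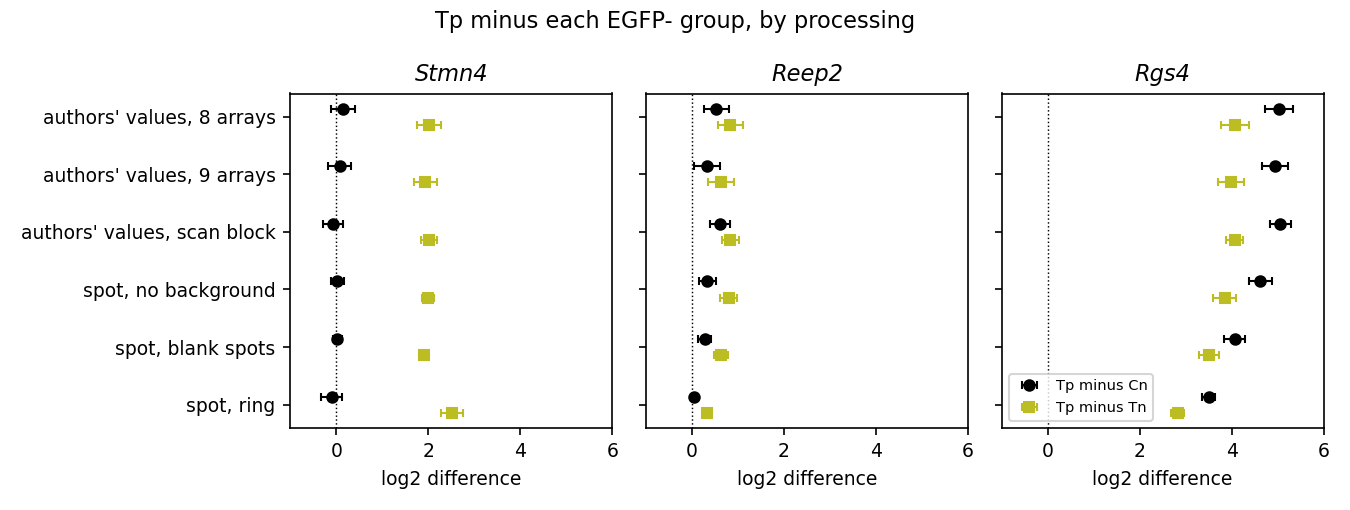
Log2 difference of Tp from Cn (circles) and from Tn (squares) under 6 ways of processing, with the standard error of the fit as bars. Rgs4 lies above 2.8 in all of them, Stmn4 is near 0 against Cn and above 1.9 against Tn, and Reep2 ranges from 0.05 to 0.83.

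Stmn4 and Reep2 followed each other over the 8 arrays (Pearson r = 0.92), and Rgs4 followed them less closely (r = 0.47 with Stmn4 and 0.52 with Reep2). These values describe 4 groups of 2 arrays and are mostly differences between groups. The named genes most like Stmn4 were Nrn1 (r = 0.98), which encodes neuritin, a promoter of neurite growth, Syt11 (0.97), a synaptotagmin of membrane traffic, 6330407J23Rik (0.97), 2310045A20Rik (0.96) and Gng3 (0.96), a gamma subunit of G proteins. Like Stmn4, these 5 were lowest in Cp and higher in Cn than in Tn, but their Tp minus Cn differences were larger, from 0.50 in Nrn1 to 0.86 in 2310045A20Rik. Stmn4 was therefore the one of these 6 with the least difference between Tp and Cn.

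Reep2 was matched most closely by Rap2ip (r = 0.997), whose product binds the small GTPase Rap2, Ap3b2 (0.99), a neuronal subunit of the AP-3 adaptor of vesicles, Mllt11 (0.99), Gdap1l1 (0.99) and AI595406 (0.99). Ap3b2 had log2 levels of 2.69 ± 0.25 in Cp, 5.83 ± 0.07 in Cn, 6.78 ± 0.33 in Tp and 5.35 ± 0.16 in Tn (SD, n = 2 each), the order of groups seen in Reep2. On Tp replicate 3 Ap3b2 was 5.80, level with Cn, as Reep2 was. Mllt11 showed the smallest Tp minus Cn difference of the 5, at 0.26.

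Among the 5 genes most like Rgs4, 3 are reported here: Pcdh21 (r = 0.99), a protocadherin, Gsbs (0.99), a phosphatase inhibitor, and Entpd2 (0.99), an enzyme that splits extracellular nucleotides. Pcdh21 had log2 levels of 8.46 ± 0.11 in Tp, 4.24 ± 0.16 in Tn, 3.65 ± 0.09 in Cp and 3.55 ± 0.04 in Cn (SD, n = 2 each), the same order as Rgs4. On Tp replicate 3 Pcdh21 was 8.22, close to the other Tp arrays. Over these 3 genes Tp minus Cn ranged from 3.12 in Entpd2 to 4.91 in Pcdh21, and Tp minus Tn from 2.53 to 4.22. Of the 23038 probes, 56 had r above 0.95 with Stmn4, 88 with Reep2 and 135 with Rgs4. Among the 301 other named genes, each taken by its brightest probe, 8, 27 and 48 did.

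**Figure D3:**
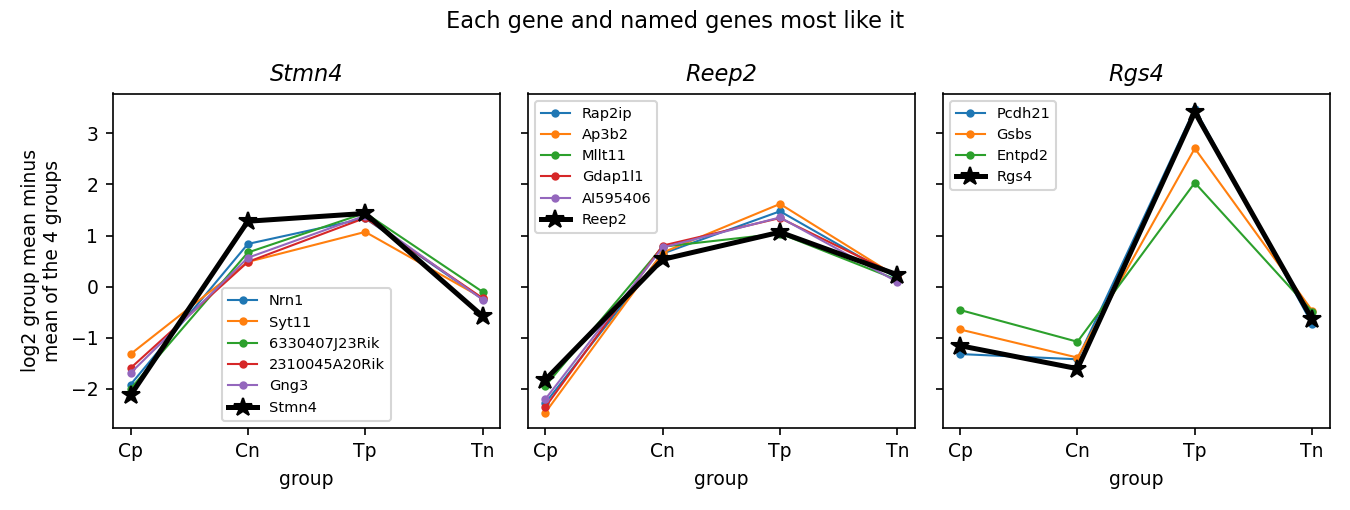
Group means (log2, 8 arrays) of each gene (black, stars) and of the named genes most like it (5 for Stmn4 and Reep2, 3 for Rgs4), each minus its own mean over the 4 groups. The Stmn4 and Reep2 panels rise from Cp to Cn and Tp and dip in Tn, and the Rgs4 panel has a single peak in Tp.

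Each gene was next set among others of its role or a related one, of which only those named in the study's table could be counted. Of 23 genes of the neuronal cytoskeleton and of axon growth, 9 were named, Stmn4 included. Of these, 6 were higher in Tp than in the mean of both EGFP- groups, 3 higher than in Cn and 6 higher than in Tn in limma, none was lower, and all 9 were lower in Cp than in Tp. Over all probes the shares higher were 2.96%, 2.94% and 2.09%, and over the 347 probes from which the named genes come 43.2%, 39.8% and 39.8%. Lower in Cp than in Tp were 4.78% of all probes and 58.2% of the 347. Without Stmn4, the median log2 difference of the other 8 was 0.76 against Cn and 1.82 against Tn, and that of all tested probes 0.12 and -0.02. Nefl, the light neurofilament, was 4.23 above Cn and 3.01 above Tn, and Gap43, a protein of growth cones, 1.50 and 2.39. Ina, the alpha-internexin of early neurons, had differences of -0.21 (SE 0.31) and -0.05 (SE 0.31), and Chl1, an adhesion molecule of the L1 family, -0.30 (SE 0.34) and -0.55 (SE 0.34). Within this list Stmn4 stood with the latter genes against Cn and with the former against Tn.

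Of 22 G protein subunits and RGS proteins only 4 were named, Rgs4, Gng3, Gng2 and Gnat3, and all 4 were higher in Tp than in the mean of both EGFP- groups and lower in Cp than in Tp, as were 43.2% and 58.2% of the 347 probes. Without Rgs4 these are 3 of 3 genes. Against Cn 3 of the 4 passed, where 39.8% of the 347 probes were higher in Tp. The log2 difference of Tp from Cn was 5.03 for Rgs4 and 4.70 for Gnat3, an alpha subunit known from taste cells with levels close to the blank spots in Cn (1.29) and Cp (1.82), but 1.27 for Gng2 and 0.83 for Gng3, both gamma subunits. No other RGS gene was named in the table, so that Rgs4 could not be set beside its family.

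Of 17 genes that shape the endoplasmic reticulum or act in membrane traffic 7 were named, Reep2 included. The other 6 were Rab6b, Ap3b2, Nsg2, Syt11, Gdap1l1 and Rab31. No other Reep gene was named, so that Reep2 could not be set beside its family. None differed from Cn in the fit, where 39.8% of the 347 probes were higher in Tp and 40.9% lower. In Tp 4 were higher than in Tn, as were 39.8% of the 347 probes and 2.09% of all tested probes. All 7 were lower in Cp than in Tp, as were 58.2% and 4.78%. Both Cp arrays lay below the other 6 arrays for each of the 7, as for 49.9% of the 347 probes of the table and 8.15% of all tested probes. Without Reep2 the median difference from Cn was 0.56 and from Tn 1.19. Rab6b, a GTPase of Golgi traffic in neurons, was 0.83 above Cn, while Nsg2, a neuronal endosomal protein, had a difference of -0.67 (SE 0.27). The order Cp, Tn, Cn, Tp of Stmn4 and Reep2 held for 4 of the other 6 genes, for 3 of the other 8 cytoskeletal genes, for 59 of the 347 probes of the table and for 1274 of 23038 probes. Ap3b2, Gdap1l1 and Syt11 were already named as most like Reep2 or Stmn4, so their order is no separate result.

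Of 29 further neuronal genes of RNA binding, transcription and secretion, 18 were named, of which 10 were higher in Tp than in the mean of both EGFP- groups and 5 lower, where 43.2% and 42.9% of the 347 probes were. Neurod4 and Neurod1, transcription factors of young neurons, were 4.63 and 2.89 above Cn and 3.25 and 3.97 above Tn. Gpm6a, a membrane glycoprotein of neurons, and Dner, a Notch-related receptor of neurons, went the other way, with Tp minus Cn of -5.26 and -3.92 and Tp minus Tn of -3.49 and -3.89.

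Markers of the cell types that these gates could hold moved with the 3 genes in different groups, and their part in the result was not tested. Of 24 genes of peripheral sensory and autonomic neurons 14 were named, and all 14 were higher in Tp than in the mean of both EGFP- groups (43.2% of the 347 probes were), with a median log2 difference of 3.30. Their summed processed intensity was 4702 to 4961 in Tp and 3898 on Tp replicate 3, against 581 to 606 in Tn, 402 to 439 in Cn and 377 to 420 in Cp, high in Tp as Rgs4 was, though with Cp and Cn overlapping. Th, the rate-limiting enzyme of catecholamine synthesis, was 4.22 above Cn and 4.08 above Tn, and Chrna3, a nicotinic receptor subunit of autonomic ganglia, 1.86 and 1.48. Chrna3 was the one of the named peripheral genes given here that was not above the blank limit in Cp. The smallest difference from the EGFP- mean in this list was that of Gfra1, a receptor subunit for glial cell line-derived factor, at 0.98.

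Of 20 genes of the forebrain and eye 17 were named, and 16 of them had their highest level in Cn, where Stmn4 and Reep2 were also high. Their summed processed intensity was 4277 to 4465 in Cn and 392 to 610 on the other arrays. Lhx2, a homeobox gene of forebrain and eye, was 10.38 in Cn and 6.03 in Tp. Dlx1 and Dlx2, which are also known from branchial arches, were 2.35 and 2.47 higher in Tp than in Tn, and 14 of the 17 genes were lower in Tp than in the mean of both EGFP- groups, where 42.9% of the 347 probes were.

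Genes of Schwann and satellite glia rose with Rgs4 as well. All 9 named of 13 were higher in Tp than in the mean of both EGFP- groups (43.2% of the 347 probes were). Their sum was 15755 to 15802 in Tp, 14352 on Tp replicate 3 and 1933 to 2625 elsewhere. Lgi4, a secreted protein of Schwann cells, was 4.99 above Cn and 4.05 above Tn. In both EGFP- groups erythroid genes were abundant, with sums of the 8 named of 10 at 79306 to 101913 in Cn and 80751 to 91536 in Tn, against 725 to 2075 in Cp and on the first 2 Tp arrays. Of the skeletal muscle genes 15 of 16, of the myeloid and mast cell genes 14 of 14, and of the craniofacial mesenchyme genes 10 of 12 were lower in Tp than in the mean of both EGFP- groups (42.9% of the 347 probes). Of the mesenchyme genes 11 of 12 were higher in Cp than in Tp (12.7% of the 347 probes and 2.71% of all probes were). The sum of the 12 was 2182 to 2593 in Cp, the group in which Stmn4 and Reep2 were lowest, and 279 to 305 in Tp. The study chose all of these named genes on the same arrays, so that no count here is independent evidence of a direction.

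**Figure D4:**
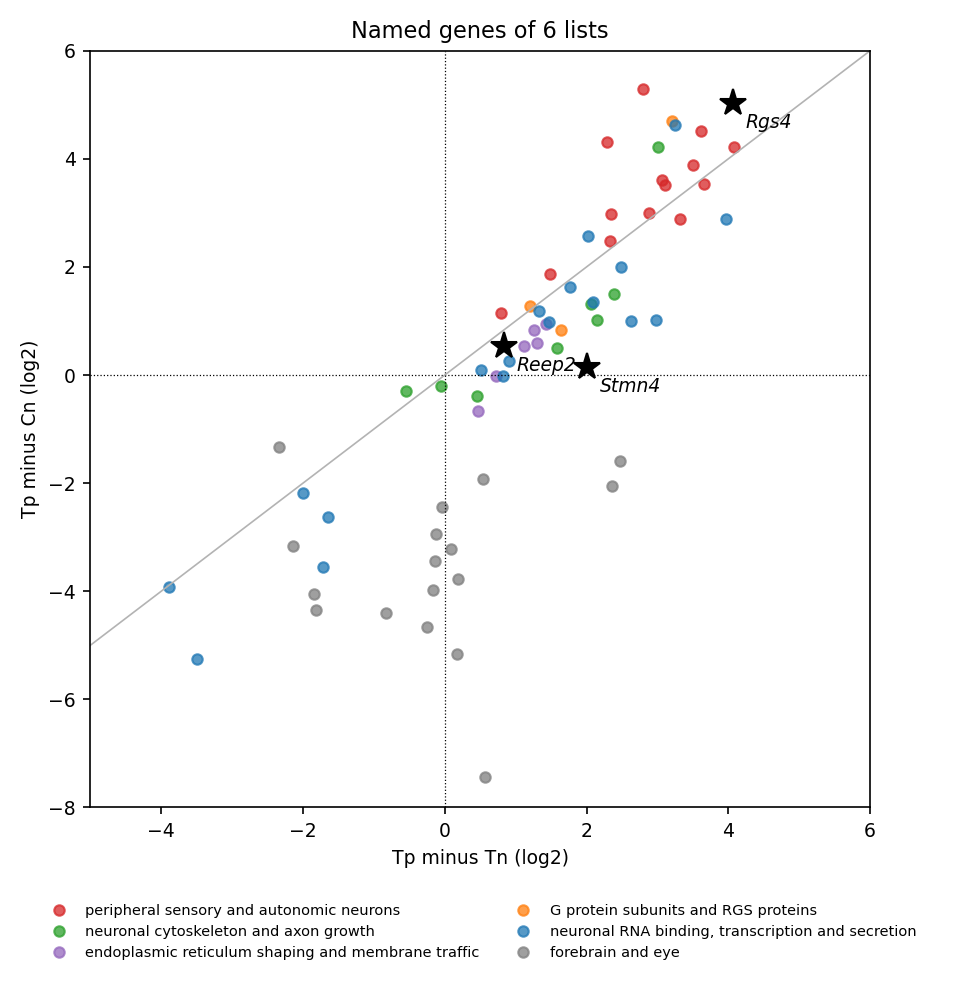
Difference of Tp from Tn (horizontal) and from Cn (vertical), both log2, for the named genes of 6 lists, each point 1 probe over 8 arrays. Stars mark the 3 genes and the grey line equal differences. Rgs4 (4.06 and 5.03) lies at the upper right, where the glial gene Lgi4 (4.05 and 4.99, of a list not drawn) also falls, Reep2 (0.83 and 0.53) lies nearer the origin, and Stmn4 (2.01 and 0.15) well below the line.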

How the data were processed

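RNA of sorted cells was hybridised by the authors to 1-colour 3D-Gene arrays (Cy5). The scanner files deposited for each of the 9 arrays give the spot and ring intensity, and a second deposited table gives the authors' processed intensity. It is linear and within 5% of a factor per array times the spot minus the blank mean for 96.2% to 98.4% of the probes compared. Only probes with spots well above the blank mean were compared, 6044 to 7832 per array. Dim readings such as Reep2 in Cp were not covered. The RNA kit is given differently by the labels (miRNeasy) and the paper (RNeasy plus Micro). No source used here gives the scanner software or the formula.

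A probe with no processed value took the lowest value of its array, log2 was taken with no pseudocount, and 23038 of 23473 probes listed on at least 2 of the 8 arrays were fitted by limma (version 3.58.1, R 4.3.3) over 4 groups, with Benjamini-Hochberg adjustment and 4 degrees of freedom left for the error. Standard errors are limma's moderated ones. They pool a probe's spread between these arrays over the groups and draw it toward the spread of all probes. The fit was tested on simulated data. Spots flagged bad were left out of the fits on scanner values, which used normexp (offset 50) and quantile normalization. Alternatives changed the background, normalization, pseudocount, filter, arrays and blocks.

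The genes and the lists were chosen with earlier results of these data known. Named besides the 3 genes were the 5 named probes most correlated with each, and per list up to 2 with the highest and 2 with the lowest difference between Tp and the EGFP- groups. Some genes that this rule picks are not reported here. A gene's name is that of the study's table, and probes outside it are unnamed here. The 3 names matched protein-coding entries of RefSeq. Coordinates other than the promoter's are not given, since the array's build is not named in the sources used here.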

Additional observations from a re-analysis of the deposited data

Results flagged for a closer look

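Stmn4 differed between EGFP+ and EGFP- cells in opposite directions in the 2 regions, with every array of one group above every array of the other in each: the log2 difference was 2.01 in the trunk and -3.41 in the craniofacial region, 5.43 apart. For Reep2 the values were 0.83 in the trunk and -2.36 in the craniofacial region, 3.20 apart, again with no overlap of arrays. The trunk difference of Reep2 did not pass the threshold of the fit. With the ring as background the Reep2 values were 0.33 in the trunk and -0.70 in the craniofacial region, so the gap between the regions was much smaller. With the blank spots as background they were 0.64 and -1.28. The difference between the regions was not tested, since the genes were chosen on these arrays. Tp replicate 3, which was not used for that choice, was 1.78 above the Tn mean for Stmn4 and 0.21 for Reep2.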

How the results depend on the processing

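Against both EGFP- groups, Cn and Tn, 1426, 1327 and 1136 probes were called in Tp. With the ring as background, offset 50 and quantile normalization the counts were 36, 28 and 28 (1468, 1598 and 2039 at an unadjusted p under 0.05), and the share that was higher moved from 47.9% to 61.1%, from 51.0% to 57.1% and from 42.3% to 64.3%. With the scan as a block 1821 were called against Tn. Leaving out 1 array gave 853 to 1278, 811 to 1318 and 701 to 1067, lowest without Tp replicate 1 (853), Cn replicate 1 (811) and Tn replicate 2 (701). Also more than 1.5 times below the full counts were 915 without Tp replicate 2 against both EGFP- groups, 843 without Cn replicate 2 and 850 without Tp replicate 1 or 2 against Cn, and 734 without Tp replicate 1 against Tn. The cause of these shifts was not tested. Tp minus both EGFP- groups was 0.19 for Reep2 and 3.16 for Rgs4 with the ring, and 3.78 for Rgs4 with the blank spots as background. Leaving out 1 array gave 1.02 to 1.14 for Stmn4, 4.26 to 4.83 for Rgs4 and 0.40 to 0.97 for Reep2, lowest without Tp replicate 1 and highest without Tp replicate 2. The sign of Stmn4 in Tp minus Cn turned in 2 of 11 settings, to -0.10 with the ring and -0.07 with the scan block. The median of all probes was 0.12 in Tp minus Cn, 0.02 after quantile normalization of the authors' values, and -0.10 in Tp minus Tn with all 9 arrays. Depth limits Reep2 in Cp most, where the spot was 2.10 times the blank mean on replicate 2.

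Deviations of replicate 1 from the group means correlated between groups at 0.06 to 0.41, and the numbers were taken as shared and not as pairs. The highest values, 0.41 for Cp with Cn and 0.41 for Tp with Tn, were those within a region. Groups of different regions correlated at 0.06 to 0.25. Sorts of the same region also shared their scans, and whether they were pairs was not tested. With the replicate number as a block the counts were 1799, 1667 and 1428. The differences of Stmn4, Reep2 and Rgs4 were 1.08, 0.68 and 4.55 as without the block. They could not have changed, since every group of the fit held both replicate numbers, so nothing is read from this.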
